A study of Mus musculus with 9 samples.

Results

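This account concerns 10 genes of vascular endothelial growth factor (VEGF) and angiopoietin signalling in the mouse thyroid, chosen by name from the 52636 genes of a single-cell count table. They are the ligands Vegfa and Angpt2, the VEGF receptors Kdr, Flt1 and Flt4, the co-receptors Nrp1 and Nrp2, the angiopoietin receptor Tek with its relative Tie1, and Esm1, a secreted endothelial proteoglycan. All 10 had counts. The question was which cell labels hold the ligand RNA, which hold the receptor RNA, and how both stood in 3 groups of mice given Notch antibodies or a control antibody. Each group held 3 samples from male C57BL/6 mice, each sample a pool of thyroids from 6 animals taken 7 days after a single intraperitoneal dose. RW mice received an isotype control antibody against ragweed at 40 mg/kg, aJ1aJ2 mice received anti-Jag1 and anti-Jag2 at 20 mg/kg each, and aN1aN2 mice received anti-Notch1 at 5 mg/kg and anti-Notch2 at 10 mg/kg. Because animals were pooled, the spread between samples is a spread between pools. The age is given as 10 to 12 weeks in one place of the labels and 10 to 14 weeks in another.

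VEGF-A is made by epithelial and stromal cells and acts on the endothelial cells of nearby vessels. Kdr (VEGFR2) is its main signalling receptor, Flt1 (VEGFR1) binds it tightly and signals little, and Flt4 (VEGFR3) answers to VEGF-C and VEGF-D and marks lymphatic endothelium. The neuropilins Nrp1 and Nrp2 help these receptors bind and also serve class 3 semaphorins. Angiopoietins bind the receptor Tek (Tie2), whose signal keeps vessels quiet, and Tie1 modulates it. In sprouting vessels Notch and VEGF receptors are known to regulate each other between neighbouring endothelial cells. Thyroid follicles are each wrapped in a dense net of fenestrated capillaries.

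The table held 10186 cells and 63121420 unique molecular identifiers (UMIs, one per captured RNA molecule), with 583 to 1805 cells and 3013324 to 11880793 UMIs a sample. Cells carried 1 of 16 labels given by the authors, and 30 cells had a barcode that also occurred in another library. UMIs of a gene were summed per sample and label and are given as counts per 1000000 UMIs of that sum (CPM). Since only the 3' end of each RNA is counted and no length is corrected for, levels are compared across labels and samples but not between genes. The aN1aN2 samples form an internal number range of their own (series C), so receptor blockade and series cannot be told apart in anything that follows. In EC1, cells had a median of 4813 UMIs in RW, 3558 in aJ1aJ2 and 2752 in aN1aN2, and in the label Th1 medians per sample were 12535 to 22558 in RW and 5737 to 7558 in aN1aN2.

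The labels were set against marker sums over samples with 20 cells. The 6 blood endothelial markers (Pecam1, Cdh5, Emcn, Plvap, Cldn5, Egfl7) summed to between 4299 and 13945 CPM in EC1 to EC4 and to at most 715 in any other label. Th1 held UMIs of the thyrocyte markers Tg, Slc5a5, Pax8 and Foxe1 in every group, which shows presence only. EC3 also held all 6 lymphatic markers (Prox1, Lyve1, Pdpn, Mmrn1, Ccl21a, Reln), between 1164 CPM in the lowest aN1aN2 sample and 6408 in the highest aJ1aJ2 sample, and so mixes vessel types. The 5 fibroblast markers summed to between 26703 and 39468 CPM in F and to at most 3989 elsewhere, and the 5 mural markers to between 17764 and 38819 in SM and to at most 7067 elsewhere, in EC2.

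Upstream sequences of the members are shown first, since the results turn on a receptor and a secreted product that moved (Kdr and Esm1), a receptor that did not pass the test (Flt1), and the ligand (Vegfa). Each run is the 250 bases before the annotated RefSeq transcript start in GRCm38.p6, written 5′ to 3′ on the strand of the gene. Capitals mark matches, on either strand, to 4 short motifs: TGGGAA (bound by RBPJ, the DNA-binding partner of Notch), CCGGAA (ETS factors), TAAACA (forkhead factors) and ACGTG (hypoxia-inducible factors). The Kdr window lies at chr5:75978456-75978705 (minus strand), that of Esm1 at chr13:113209409-113209658 (plus strand), that of Flt1 at chr5:147726012-147726261 (minus strand), and that of the first Vegfa start at chr17:46032378-46032627 (minus strand).
Kdr: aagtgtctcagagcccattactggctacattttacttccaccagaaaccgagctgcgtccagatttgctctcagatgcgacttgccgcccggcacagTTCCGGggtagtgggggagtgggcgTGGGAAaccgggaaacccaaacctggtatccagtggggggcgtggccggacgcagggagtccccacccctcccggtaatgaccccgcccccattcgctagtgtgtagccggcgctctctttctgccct
Esm1: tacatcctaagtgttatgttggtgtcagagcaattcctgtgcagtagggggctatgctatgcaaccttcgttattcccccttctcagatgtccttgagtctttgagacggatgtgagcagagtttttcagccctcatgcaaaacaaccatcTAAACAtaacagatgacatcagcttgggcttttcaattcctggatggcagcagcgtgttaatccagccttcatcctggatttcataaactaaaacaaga
Flt1: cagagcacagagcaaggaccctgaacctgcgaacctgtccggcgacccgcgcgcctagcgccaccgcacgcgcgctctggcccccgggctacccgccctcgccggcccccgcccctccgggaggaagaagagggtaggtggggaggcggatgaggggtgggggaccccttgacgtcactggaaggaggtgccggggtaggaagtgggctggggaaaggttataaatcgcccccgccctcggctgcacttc
Vegfa: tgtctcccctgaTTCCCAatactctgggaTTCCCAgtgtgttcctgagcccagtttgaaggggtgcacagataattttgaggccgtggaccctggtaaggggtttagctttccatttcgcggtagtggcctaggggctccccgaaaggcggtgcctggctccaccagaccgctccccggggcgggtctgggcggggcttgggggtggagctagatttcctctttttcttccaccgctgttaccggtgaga

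Counted back from the start, the Kdr window held TGGGAA with its first base at -128 and CCGGAA on the other strand at -153. Esm1 held TAAACA at -99. Vegfa held TGGGAA on the other strand at -238 and -221. A second annotated Vegfa start has its window at chr17:46025164-46025413, which lies inside the Vegfa gene. That window held ACGTG on the other strand at -211 and TGGGAA at -87 and -12. Tie1 held TGGGAA on the other strand at -16. The windows of Flt1, Nrp1, Nrp2, Tek and Flt4 held no match to these letters, and Angpt2 was not matched in the sequence table. Matches are common: of 32851 mouse promoter windows of the same length, TGGGAA occurred in 21.6%, ACGTG in 16.6%, and CCGGAA and TAAACA in 12.0% each. These are matches of letters, not measured binding sites.

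Thyrocytes held the ligand RNA. Of 5841 Vegfa UMIs in the RW samples, 93.1% lay in Th1 cells (88.4% to 94.9% per sample) and 2.14% in EC1 to EC4. Vegfa lies at chr17:46016993-46032369 on the minus strand (GENCODE M21, GRCm38). Its RW level was 493 ± 56.5 CPM (SD, n = 3) in Th1, 131 ± 44.5 in Th3, 80.4 ± 19.1 in the fibroblast label F, 41.9 ± 17.7 in EC3 and 11.0 ± 0.761 in EC1. Th1 stood apart from Th3, and Th3 from F, without overlap of samples (lowest Th3 sample 103, highest F sample 102 CPM), and F from EC3 (lowest F sample 65.4, highest EC3 sample 53.2 CPM). Th2 reached 742 CPM from 35 UMIs of 39 RW cells, with no sample holding 20 of them. The 3 genes whose pattern over 13 labels was most like that of Vegfa were Shroom3 (Pearson r = 0.976), Sox9 (0.968) and Nckap5 (0.956), among 11700 genes.

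Angpt2, which competes with the Tek activator Angpt1, had few counts. It lies at chr8:18690263-18741562 (minus strand), opposite Mcph1, which had 198 UMIs in all samples, and Angpt2 itself had 577. Of its 241 UMIs in RW, 77.2% fell in EC1 to EC4 and 8.71% in SM. The mural label SM gave the highest pooled RW level, 80.3 CPM from 21 UMIs (95% Poisson interval 49.7 to 123), but only 1 RW sample held 20 SM cells. EC4 had 38.9 ± 9.54 CPM (SD, n = 3), EC1 27.9 ± 10.9 and EC3 19.4 ± 6.09, and neighbours in this order overlapped between samples. At equal depth the share of cells with an Angpt2 UMI was highest in S, among labels with at least 50 RW cells. S had only 7 Angpt2 UMIs over 62 RW cells (20.6 CPM, 95% Poisson interval 8.30 to 42.5). The mean of each cell's CPM put EC1 first. The genes most like it over the 13 labels were Sybu (r = 0.978), Gm13889 (0.978) and Tmtc1 (0.975).

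**Figure D1:**
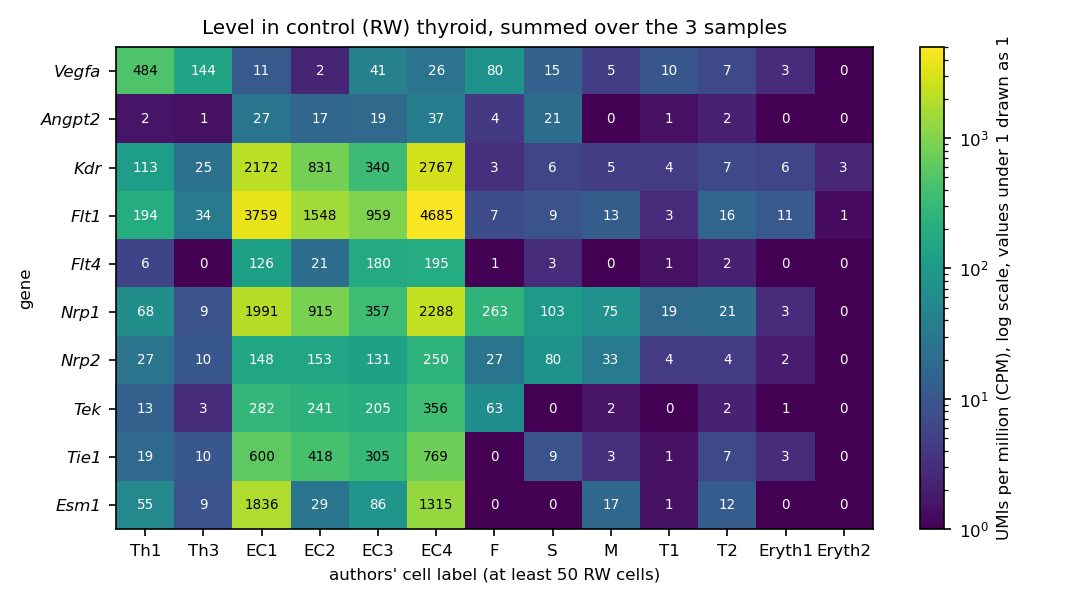
RW levels of the 10 genes (rows) in the 13 labels with at least 50 RW cells (columns), as pooled CPM on a log colour scale. Vegfa is highest in Th1 (484 CPM) and the receptors in the 4 EC labels. Colours compare labels within a row, not genes.

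Receptor RNA sat in the endothelial labels. Summed CPM put EC4 first for every receptor and co-receptor, but the share of cells with a UMI at equal depth put EC1 first for Kdr, Flt1 and Nrp1 and EC2 first for Tek. Kdr (chr5:75932827-75978458, minus strand) had an RW level of 2735 ± 194 CPM (SD, n = 3) in EC4, 2208 ± 191 in EC1, 835 ± 201 (n = 2) in EC2 and 334 ± 92.0 in EC3, and these 4 ranges did not overlap. Th1 followed at 116 ± 30.1 CPM and Th3 at 22.2 ± 13.3. Flt1 (chr5:147561604-147726011, minus strand) took the same order, with 4661 ± 380 CPM in EC4, 3835 ± 410 in EC1, 1643 ± 512 (n = 2) in EC2 and 967 ± 129 in EC3. Flt1 was also the gene most like Kdr in pattern (r = 0.995 over 13 labels), followed by Adgrl4 (0.992) and Clic5 (0.989). These are descriptions, since the labels were made from the same counts.

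Flt4 (chr11:49609263-49652739, plus strand) broke the shared order. Its RW level was 191 ± 32.8 CPM (SD, n = 3) in EC4, 176 ± 60.4 in EC3 and 128 ± 9.49 in EC1, and the samples of EC4 and EC3 overlapped, as did those of EC3 and EC1. EC2 was lower at 29.0 ± 7.45 (n = 2). Its closest genes in pattern were Syt15 (r = 0.993), Ssu2 (0.980) and E030026E10Rik (0.976).

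Splitting EC3 by its lymphatic markers separated these receptors. The split was made after values were seen and gets no test. The 88 EC3 cells with at least 2 of the 6 lymphatic markers, pooled over samples, had 630 CPM of Flt4 (95% Poisson interval 578 to 685), 531 of Kdr, 196 of Nrp2, 18.5 of Flt1 and 2.31 of Nrp1. The 266 EC3 cells with none of the markers had 37.7 CPM of Flt4, 276 of Kdr, 113 of Nrp2, 1382 of Flt1 and 456 of Nrp1. Flt4 and Nrp2 RNA, like that of Kdr, was thus more frequent in the cells with lymphatic markers, and Flt1 and Nrp1 RNA in those without. Tie1 was at 340 and 344 CPM in the same order.

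**Figure D2:**
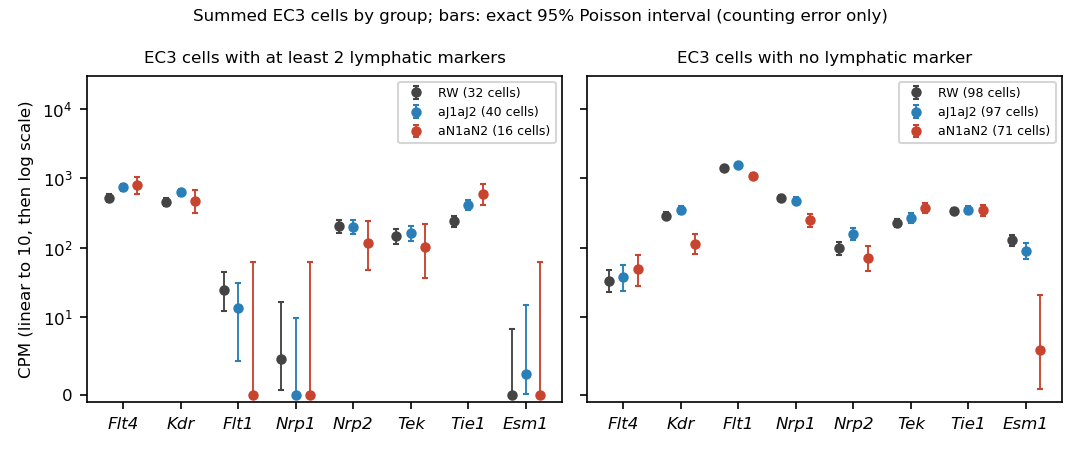
EC3 cells with at least 2 lymphatic markers or with none, drawn separately for each antibody group. Points are CPM of each gene drawn, pooled over the samples of a group, on an axis linear at low values and then logarithmic. Bars are 95% Poisson intervals, which cover counting error only. Pooled over all groups (88 and 266 cells, not drawn), Flt4 stands at 630 against 37.7 CPM, and Flt1 at 18.5 against 1382.

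The co-receptors differed in how widely they were found. Nrp1 (chr8:128358604-128503363, plus strand) had an RW level of 2273 ± 149 CPM (SD, n = 3) in EC4, 1977 ± 71.3 in EC1, 943 ± 193 (n = 2) in EC2 and 365 ± 98.0 in EC3. Fibroblasts (F) held 281 ± 83.6 CPM of Nrp1, overlapping EC3, and pooled SM cells 271 CPM. Nrp2 (chr1:62703285-62818695, plus strand) lies across Gm37121 on its own strand and Gm29083 on the other, of which the larger had 134 UMIs. It had 243 ± 39.6 CPM (SD, n = 3) in EC4, 153 ± 29.0 in EC1, 144 ± 58.2 (n = 2) in EC2 and 130 ± 23.8 in EC3, and the last 3 overlapped. Of Nrp2 UMIs in RW, 73.6% lay in the EC labels and 20.0% in Th1.

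The Tie receptors followed the VEGF receptors with smaller steps between labels. Tek (chr4:94739289-94874976, plus strand) had an RW level of 365 ± 53.0 CPM (SD, n = 3) in EC4, 283 ± 11.9 in EC1, 256 ± 26.1 (n = 2) in EC2 and 208 ± 37.8 in EC3, and 57.6 ± 26.4 in F. Tie1 (chr4:118471191-118490061, minus strand) had 782 ± 75.9 in EC4, 603 ± 25.5 in EC1, 449 ± 31.2 (n = 2) in EC2 and 307 ± 30.5 in EC3, without overlap, and no UMI in the 120 F cells of RW. Esm1 (chr13:113209659-113218098, plus strand), known as a product of tip cells and as VEGF-responsive, was at 1771 ± 357 CPM in EC1 and 1351 ± 392 in EC4, which overlapped, but only at 87.0 ± 45.8 in EC3 and at 28.7 CPM over all EC2 cells, where 10 of its 12 UMIs came from the 15 cells of RW 3. Esm1 overlaps Gzmk on the other strand, which had 7 UMIs in all.

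Endothelial RNA also appeared under the thyrocyte label at a low level. The RW level in Th1 was 6.58 ± 1.65% (SD, n = 3) of that in the summed EC labels for Kdr, 6.18 ± 1.35% for Flt1, 4.47 ± 1.16% for Nrp1, 3.26 ± 1.07% for Tie1 and 3.93 ± 1.84% for Esm1. Among endothelial markers that are not members, Pecam1 was at 4.41 ± 1.17% and Plvap at 3.59 ± 0.741%, while Cldn5 was far lower at 0.297 ± 0.430%. Nrp2 stood apart at 17.4 ± 1.44%. Whether the receptor UMIs in Th1 come from thyrocytes was not tested.

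Ligand blockade left every member short of the threshold. Changes between groups were tested with edgeR's quasi-likelihood test on the sums, in labels where at least 2 samples of each group held 20 cells, and a gene was called at a Benjamini-Hochberg adjusted p under 0.05 over all genes of that label. For aJ1aJ2 against RW, 0 of 52 tested pairs of member and label were called in 12 labels (120 pairs possible), 5 had an unadjusted p under 0.05, and the background was 0.662% of all gene and label pairs. DESeq2 also called 0, with 3 at an unadjusted p under 0.05. In the sum of EC1 to EC4, 0 of 10 members were called by edgeR (2 at an unadjusted p under 0.05) against 1.16% of all genes, and in the sum of all cells 0 of 10 (0 at an unadjusted p under 0.05) against 0.0278%.

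The smallest adjusted p of that contrast belonged to Esm1 in EC1. Esm1 was at 1565, 1565 and 2182 CPM in RW 1, RW 2 and RW 3 and at 2745, 2045 and 2243 CPM in aJ1aJ2 1, 3 and 4. RW 3 lay within the aJ1aJ2 range. Internal sample numbers put RW 3 and aJ1aJ2 1 in one range (series A) and the other RW and aJ1aJ2 samples in another (series B), and Esm1 was higher in aJ1aJ2 within both. The log2 difference was 0.38 ± 0.13 (SE, edgeR adjusted p = 0.21), without RW 3 it was 0.56 (edgeR adjusted p = 0.015), and with the series as a covariate it was 0.39 ± 0.10 (edgeR adjusted p = 0.066). With that covariate 0 members were called in any label. Kdr in EC1 was at 2304, 2331 and 1988 CPM in RW and at 2230, 2071 and 2083 in aJ1aJ2, a log2 difference of -0.08 ± 0.10 with overlapping groups. Vegfa in Th1 differed by 0.05 ± 0.10 (edgeR adjusted p = 0.89).

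Receptor blockade was accompanied by a loss of Kdr, Nrp1 and Esm1 RNA in capillary endothelium while Flt1, Flt4, Tek and Tie1 there did not pass the test. For aN1aN2 against RW, 18 of 49 tested pairs of member and label were called over 9 labels (90 pairs possible), 2 higher and 16 lower, against a background of 19.9% of all gene and label pairs. The calls fell on 6 members. Flt1, Flt4, Tie1 and Angpt2 were called in no label. DESeq2 called 16 of the 49.

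In EC1, 3 of 10 members were called, all lower (17.8% of all genes tested in EC1 were called). Kdr was at 2304, 2331 and 1988 CPM in RW and at 416, 408 and 399 CPM in aN1aN2. Every aN1aN2 sample lay far below every RW and aJ1aJ2 sample. Kdr fell 5.53-fold (log2 change -2.47 ± 0.11 SE, edgeR adjusted p = 3.5e-12).

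Nrp1 fell as well. It was at 1950, 1923 and 2058 CPM in RW, at 2201, 2260 and 2134 in aJ1aJ2 and at 535, 371 and 506 in aN1aN2, where it fell 4.29-fold (log2 change -2.10 ± 0.13 SE, edgeR adjusted p = 1.7e-10). Esm1 was at 217, 184 and 215 CPM in aN1aN2, against the RW values of 1565 to 2182 CPM. That is 8.80-fold lower (log2 change -3.14 ± 0.16, edgeR adjusted p = 1.4e-11), again with no overlap of groups.

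The other receptors and co-receptors did not pass the test in EC1. Flt1 was at 4042, 4100 and 3363 CPM in RW and at 3755, 3652 and 3845 in aN1aN2, and the aN1aN2 samples lay inside the RW range (log2 difference -0.06 ± 0.10 SE, edgeR adjusted p = 0.74). Flt4 differed by -0.14 ± 0.15, Tie1 by -0.19 ± 0.11 and Tek by 0.19 ± 0.12. Every aN1aN2 sample was nevertheless below every RW sample for Tie1 (519 to 571 against 586 to 632 CPM) and above for Tek (297 to 365 against 276 to 297 CPM, the nearest samples almost equal). Nrp2 was at 173, 167 and 120 CPM in RW and 128, 115 and 85.4 in aN1aN2, which overlapped (log2 difference -0.49 ± 0.18, edgeR adjusted p = 0.065). Angpt2 (-0.52 ± 0.43) and Vegfa (0.50 ± 0.37) had too few EC1 counts for a firm value.

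**Figure D3:**
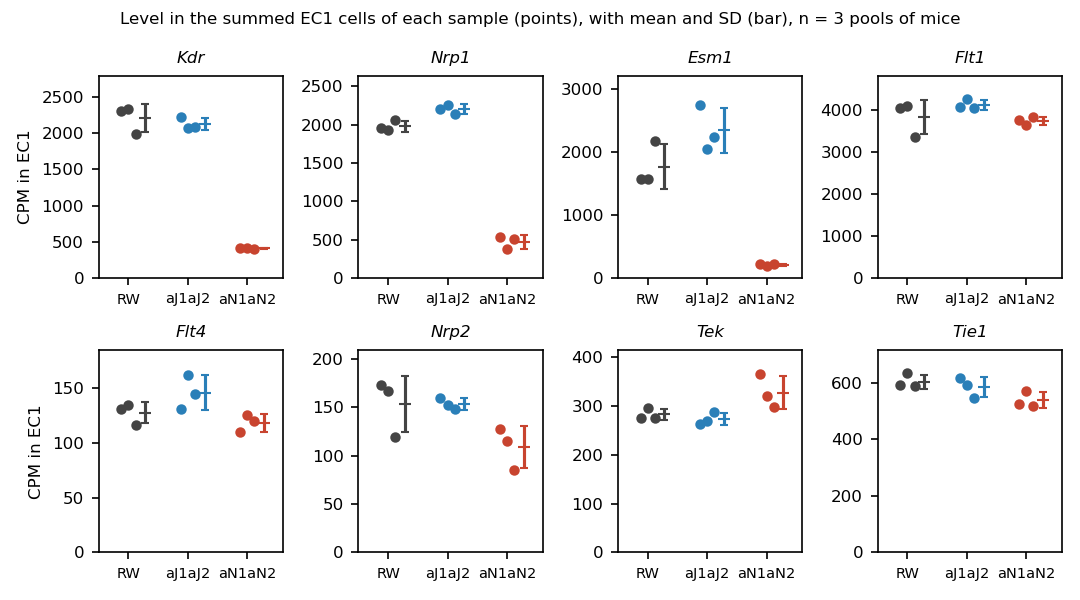
EC1 level (CPM, summed per sample) of 8 genes in the 9 samples, with each group's mean and SD as bar. For Kdr, Nrp1 and Esm1 the 3 aN1aN2 samples sit below all 6 others, for Kdr at 399 to 416 CPM. For Flt1 they sit within the RW range.

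Ratios within the same sum do not depend on the library total. EC1 held 0.577 ± 0.0127 Kdr UMIs per Flt1 UMI in RW (SD, n = 3), 0.516 ± 0.0317 in aJ1aJ2 and 0.109 ± 0.0044 in aN1aN2. RW (0.569 to 0.591) and aJ1aJ2 samples (0.486 to 0.549) did not overlap in this ratio, unlike in Kdr CPM. They did not overlap in EC2, EC4 and Th1 either, but did in EC3 and in the sum of EC1 to EC4, and none of this was tested. Nrp1 per Flt1 was 0.521 ± 0.0789, 0.533 ± 0.0078 and 0.125 ± 0.0211 in the same order, and Esm1 per Flt1 was 0.473 ± 0.153, 0.570 ± 0.0989 and 0.0547 ± 0.0038. Tek per Tie1 was 0.469 ± 0.0023 in RW and 0.610 ± 0.0746 in aN1aN2, again without overlap and not tested. Its mean was higher in aN1aN2 in EC3 and EC4 too. It was lower in EC2 (0.590 in RW and 0.349 in aN1aN2) and in Th1 (0.765 and 0.454).

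Single cells showed the same falls at equal depth. With each EC1 cell thinned to 500 UMIs, 60.5% of RW, 60.3% of aJ1aJ2 and 15.5% of aN1aN2 cells had a Kdr UMI (98.9%, 98.1% and 65.9% without thinning). Nrp1 stood at 62.6%, 65.2% and 25%, and Esm1 at 40.7%, 45.1% and 12.9%. Flt1 stood at 79.9%, 82.3% and 79.5%. Erythroid cells (label Eryth2), which should lack these receptors, gave 0% or 0.369% for Kdr after thinning, and 0.216% to 2.23% at their full median depth of 6005 to 10055 UMIs.

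Markers of other cell types also differed in EC1. The summed macrophage markers (5 genes) ranged from 81.5 to 214 CPM over RW samples and from 0 to 9.49 over aN1aN2 samples, with Csf1r and Adgre1 at 0 there. The summed blood endothelial markers (6 of 6 present) ranged from 12012 to 13945 and from 10434 to 10931 CPM. Single endothelial markers went both ways. In the sum of EC1 to EC4, mean Emcn was 3308 CPM in RW and 1232 in aN1aN2, and mean Pecam1 was 1192 and 2016. The part of all these markers in the falls was not tested. The label EC1 itself took 50% to 63.4% of endothelial cells in RW samples and 24.7% to 32.2% in aN1aN2 samples, while EC4 took 20.5% to 25.1% and 47.9% to 51.9%. Fewer cells of a kind and less RNA per cell cannot be told apart where kinds share a label.

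EC4, the other label high in receptors, repeated the pattern, with 4 of 8 tested members called (21.1% of all genes in EC4) and a median near 1000 UMIs per cell in both groups. Kdr was at 2813, 2515 and 2877 CPM in RW and at 744, 565 and 712 in aN1aN2, a 4.31-fold fall (log2 change -2.11 ± 0.17 SE, edgeR adjusted p = 8.4e-10). Nrp1 fell from 2225, 2155 and 2441 to 630, 617 and 522 CPM (log2 change -2.03 ± 0.17). Esm1 fell from 904, 1511 and 1637 to 194, 269 and 99.4 CPM (log2 change -2.89 ± 0.27), with no overlap in any of the 3 genes. Nrp2 was at 258, 198 and 273 CPM in RW and 164, 105 and 124 in aN1aN2, and fell by 0.98 on the log2 scale (SE 0.25, edgeR adjusted p = 0.0054). The Nrp2 call was lost with sums thinned to the lowest total and in the fit with a replicate block (adjusted p up to 0.060).

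In EC2, where mural markers summed to between 583 and 2017 CPM over RW samples and between 1190 and 7067 over aN1aN2 samples, and where 2 RW and 2 aJ1aJ2 samples held 20 cells, 2 of 7 members were called (15.5% of all genes). Kdr was at 693 and 977 CPM in RW 1 and RW 2 and at 311, 121 and 136 in aN1aN2 (log2 change -2.06 ± 0.31 SE, edgeR adjusted p = 0.00035). Nrp1 was at 807 and 1080 CPM and at 515, 388 and 214 (log2 change -1.28 ± 0.26, edgeR adjusted p = 0.0028). Esm1 had 12 UMIs in the EC2 cells of RW and 0 of 226931 UMIs in aN1aN2, at least 2.17-fold lower when 3 UMIs over the whole group are taken as the limit. That bound rests on RW 3, since RW 1 and RW 2 had 1 UMI each.

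In EC3, 3 of 10 members were called (5.91% of all genes). Kdr was at 435, 312 and 255 CPM in RW and at 108, 121 and 244 in aN1aN2, close to touching, with a log2 change of -1.04 ± 0.29 (SE, edgeR adjusted p = 0.045). That call was lost with DESeq2, with only the 2 groups in the fit, with thinned sums and without any of RW 1, RW 2, aN1aN2 1 or aN1aN2 2 (adjusted p up to 0.21). Esm1 had 123 UMIs in the EC3 cells of RW and 3 in aN1aN2, a CPM ratio of 12.8 (95% counting interval 4.27 to 62.8), and its edgeR call was lost without aN1aN2 2 (adjusted p = 0.064). Tek rose, from 211, 169 and 245 to 340, 412 and 291 CPM (log2 change 0.79 ± 0.20, edgeR adjusted p = 0.032), and lost its call with DESeq2, with thinned sums and without RW 1, RW 2, aN1aN2 1 or aN1aN2 2 (up to 0.14). Summed mural markers in EC3 ranged from 2668 to 4315 CPM over RW samples and from 753 to 958 over aN1aN2 samples (5 of 5 present), and their part was not tested.

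Kdr was also followed on both sides of the EC3 split, as a description. Cells without lymphatic markers had 358, 281 and 220 CPM of Kdr in RW 1, RW 2 and RW 3 and 89.8, 95.2 and 168 CPM in aN1aN2. Cells with at least 2 lymphatic markers had 457 CPM in RW (32 cells, 95% Poisson interval 396 to 525) and 474 CPM in aN1aN2 (16 cells, 28 UMIs, interval 315 to 685), of which 19 UMIs came from 4 cells of aN1aN2 3. In aN1aN2 1, 11 such cells had 225 CPM from 6 UMIs. No test was made on so few cells.

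The size of the change was also compared between labels on log2(CPM + 10), by exact two-sided permutation tests whose smallest possible p is 0.1 with 3 against 3 samples, so that no difference between labels can be shown. The Kdr change was 1.32 log2 units smaller in EC3 than in EC1 (exact p = 0.1) and the Nrp1 change 1.25 units smaller (exact p = 0.1). Kdr in EC4 and EC1 differed by 0.39 (exact p = 0.2). Nrp1 and Esm1 in EC4 and EC1, and Kdr and Nrp1 in EC2 and EC1, had exact p of 0.3 to 0.9. The EC2 values here include RW 3, which had only 15 EC2 cells. The Vegfa change in F less that in Th1 was 2.12 and the Tek change in F less that in EC3 was -2.02 (exact p = 0.1 each). In all, 9 such differences were computed.

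**Figure D4:**
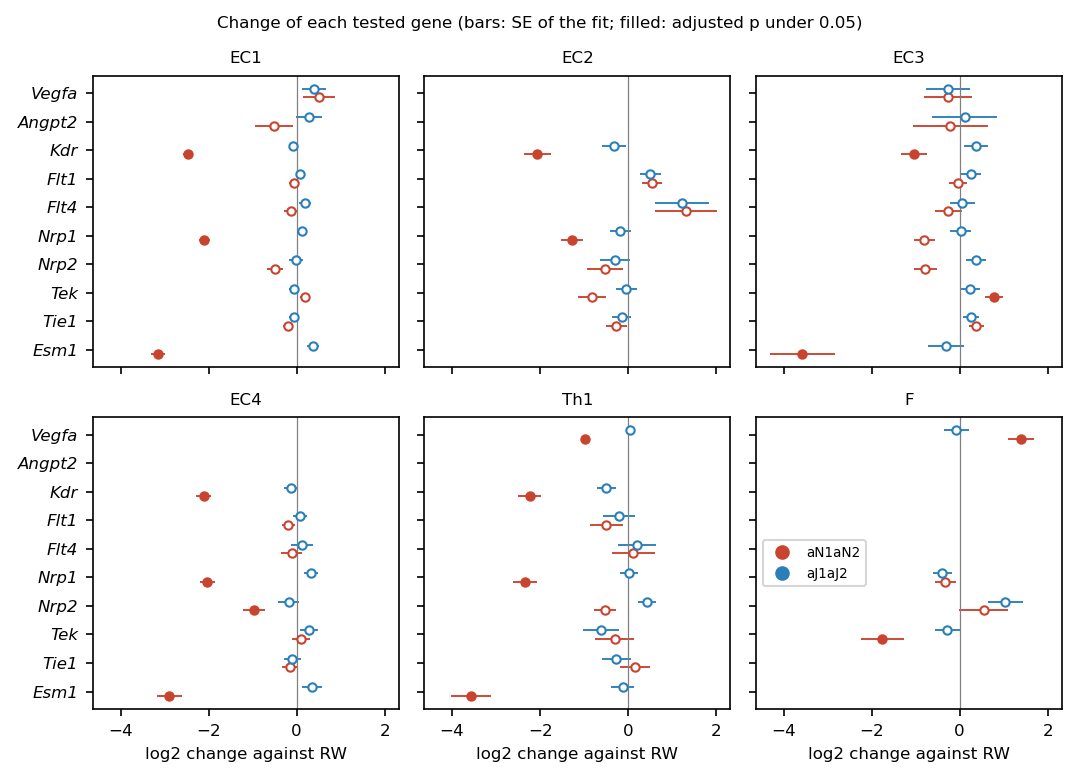
Log2 change (± SE, edgeR) against RW of each tested gene in EC1 to EC4, Th1 and F, for aN1aN2 and for aJ1aJ2. Filled points have an adjusted p under 0.05. For aN1aN2, Kdr and Nrp1 lie below 0 in EC1 to EC4 and Th1, and Esm1 in EC1, EC3, EC4 and Th1. Nrp1 in F lies at -0.32 for aN1aN2, and every aJ1aJ2 point is open.

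In the sum of EC1 to EC4, 4 of 10 members were called lower for aN1aN2 against RW (19.7% of all genes). Kdr changed by -2.16 ± 0.10 on the log2 scale, Nrp1 by -1.88 ± 0.12, Esm1 by -3.21 ± 0.20 and Nrp2 by -0.49 ± 0.15 (SE, edgeR adjusted p = 0.032 for Nrp2, which lost its call when 1 of 4 samples was left out, up to 0.13). In the sum of all cells, Kdr (-2.28 ± 0.22), Nrp1 (-1.86 ± 0.22) and Esm1 (-3.37 ± 0.27) were called, 3 of 10 members against 16.6% of all genes. EC1 to EC4 gave 24.2% to 28.2% of all UMIs in RW samples and 18.4% to 21.2% in aN1aN2 samples.

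Among the thyroid labels, Th1 held less ligand RNA after receptor blockade. In Th1, 4 of 9 tested members were called, all lower, where 34.4% of all genes were called. Vegfa was at 538, 513 and 430 CPM in RW, at 485, 503 and 555 in aJ1aJ2 and at 246, 265 and 241 in aN1aN2. The 3 aN1aN2 samples lay below all others. Vegfa fell by 0.97 on the log2 scale (SE 0.10, edgeR adjusted p = 4.8e-06). In Th3, Vegfa was at 131 ± 44.5 CPM in RW and 128 ± 78.6 in aN1aN2 (SD, n = 3). The log2 difference there was -0.06 (edgeR adjusted p = 0.96). Pooled Th2 cells had 742 CPM in RW from 35 UMIs and 838 in aN1aN2 from 50, with too few cells for a test.

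Per cell, 20.7% of RW, 23.0% of aJ1aJ2 and 14.7% of aN1aN2 Th1 cells had a Vegfa UMI after thinning to 500 UMIs, and 97.2%, 97.0% and 76.7% had one at full depth. In Eryth2 cells the thinned share was 0% in all 3 groups.

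Besides Vegfa, the members called in Th1 were Kdr, Nrp1 and Esm1. Kdr changed by -2.24 ± 0.26 (SE) on the log2 scale there, Nrp1 by -2.33 ± 0.27 and Esm1 by -3.57 ± 0.45. Kdr in Th1 amounted to 5.95 ± 2.55% (SD, n = 3) of the EC level in aN1aN2 and 6.58 ± 1.65% in RW. The same share was 3.12 ± 0.934% and 4.47 ± 1.16% for Nrp1, 2.57 ± 2.82% and 3.93 ± 1.84% for Esm1, and 4.15 ± 3.27% and 6.18 ± 1.35% for Flt1. Summed blood endothelial markers in Th1 ranged from 331 to 435 CPM over RW samples and from 91.7 to 419.9 over aN1aN2 samples (6 of 6 present). What part endothelial RNA in Th1 cells has in these calls was not tested.

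Fibroblasts went the other way for the ligand. In F, 2 of 4 tested members were called (19.8% of all genes). Vegfa was at 102, 74.0 and 65.4 CPM in RW, at 80.7, 59.0 and 89.4 in aJ1aJ2 and at 152, 308 and 149 in aN1aN2. All aN1aN2 samples were above all others, and aN1aN2 2 stood out. Vegfa rose 2.61-fold (log2 change 1.39 ± 0.30 SE, edgeR adjusted p = 0.0026), from 76 UMIs in RW and 94 in aN1aN2, and without aN1aN2 2 the change was 0.93 (edgeR adjusted p = 0.061).

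Tek in F was at 45.7, 87.9 and 39.2 CPM in RW and at 22.5, 18.1 and 9.34 in aN1aN2, from 60 and 8 UMIs. The groups did not overlap, and the log2 change was -1.75 ± 0.49 (SE, edgeR adjusted p = 0.015). That call was lost without RW 2, aN1aN2 2 or aN1aN2 3 (up to 0.12). Summed erythroid markers in F ranged from 95.9 to 240 CPM over RW samples and from 716 to 34500 over aN1aN2 samples, and F cells had medians of 5561 to 10026 and 2295 to 3864 UMIs. Their part was not tested.

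Most Vegfa UMIs lay in Th1 in all groups. Th1 held 93.1% of Vegfa UMIs in RW, 89.6% in aJ1aJ2 and 81.2% in aN1aN2, and F held 1.30%, 3.17% and 7.00%. Such shares also move with the number of cells caught, and F held 120 cells in RW, 297 in aJ1aJ2 and 121 in aN1aN2. The mean Vegfa level in F was 80.4 CPM in RW and 76.4 in aJ1aJ2. In the sum of all cells Vegfa was at 262, 114 and 233 CPM in RW and 119, 126 and 94.2 in aN1aN2, which overlapped (log2 difference -0.57 ± 0.25 SE, edgeR adjusted p = 0.15). RW 2, the low RW sample, had 19.6% of its UMIs in Th1 against 45.4% and 51.5% in RW 1 and RW 3.

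**Figure D5:**
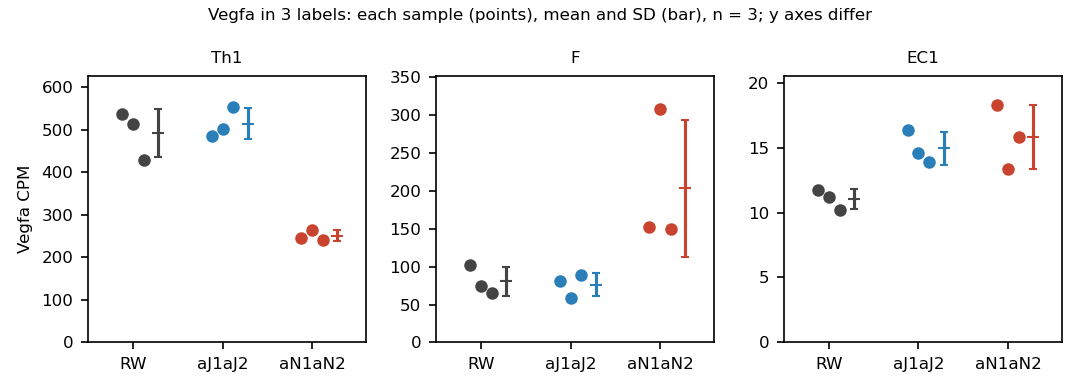
Vegfa level (CPM, summed per sample) in Th1, F and EC1 in the 9 samples, with each group's mean and SD. In Th1 the aN1aN2 samples lie at 241 to 265 CPM, below all others, and in F at 149 to 308 CPM, above all others.

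The blockades were also compared directly. For aN1aN2 against aJ1aJ2, 19 of 54 tested pairs of member and label were called over 10 labels (100 pairs possible), 1 higher and 18 lower, on 7 members (12.9% of all gene and label pairs). In EC1, Kdr changed by -2.39 ± 0.11 (SE) on the log2 scale, Nrp1 by -2.23 ± 0.13 and Esm1 by -3.51 ± 0.16, and Flt1 differed by -0.14 ± 0.10. In EC4 the values were -1.97 ± 0.17 for Kdr, -2.35 ± 0.17 for Nrp1, -3.23 ± 0.27 for Esm1 and -0.79 ± 0.25 for Nrp2, whose call was lost with DESeq2, with no filter, with thinned sums and without aJ1aJ2 4, aN1aN2 2 or aN1aN2 3 (adjusted p up to 0.22). Th1 had lower Vegfa (-1.02 ± 0.10, edgeR adjusted p = 6.9e-06) and F higher Vegfa (1.47 ± 0.28, edgeR adjusted p = 0.0011). This contrast shares the aN1aN2 samples with the one against RW. In the sum of EC1 to EC4, 4 of 10 members were called (13.5% of all genes), and in the sum of all cells 3 of 10 (9.94%). Nrp2 in the sum of EC1 to EC4 lost its call without aJ1aJ2 3, aJ1aJ2 4, aN1aN2 2 or aN1aN2 3 (edgeR adjusted p up to 0.12). Nrp2 in Th1 lost its call with thinned sums and without aN1aN2 1 (edgeR adjusted p up to 0.073). Kdr in EC3 and Tek in F also lost their calls under several settings.

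The mural label SM could be tested in this contrast only, with 2 of 5 members called (4.05% of all genes). Flt1 in SM was at 463 and 56.0 CPM in aJ1aJ2 3 and 4 and at 13.3, 93.9 and 16.9 in aN1aN2 (log2 change -2.78 ± 0.63 SE, edgeR adjusted p = 0.0040), so the groups overlapped. Nrp2 in SM was at 109 and 200 CPM and at 13.3, 31.3 and 33.8 (log2 change -2.73 ± 0.69, edgeR adjusted p = 0.012). Both calls were lost under several settings (adjusted p up to 0.34 and 0.17). Summed blood endothelial markers in SM ranged from 224 to 715 CPM over the aJ1aJ2 samples and from 50.7 to 705 over the aN1aN2 samples (6 of 6 present), and their part was not tested.

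Other genes of the pathway were followed in 6 lists of 61 genes: further ligands, neuropilin partners, receptor partners and transducers, sprouting and tip cell genes, oxygen sensors and hypoxia targets. In EC1, 47 were tested, and 6 rose and 11 fell for aN1aN2 against RW, where 8.83% and 8.93% of all genes did. The 11 sprouting and tip cell genes had 0 higher and 6 lower, with a median log2 change of -1.04 against -0.01 for all genes. Aplnr, the apelin receptor, fell from 200, 204 and 176 CPM to 50.3, 45.4 and 41.1 (log2 change -2.09 ± 0.20 SE, edgeR adjusted p = 1.3e-07). Unc5b, a netrin receptor of tip cells, had 243 UMIs in RW and 10 in aN1aN2 (log2 change -2.46 ± 0.41). Bnip3, a hypoxia-induced mitophagy gene, rose by 2.35 ± 0.29, while the 7 hypoxia targets tested in EC1 had 2 higher and 2 lower.

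Pgf, the placental growth factor that binds Flt1, was nearly absent from EC1 of the other groups. It had 1, 0 and 2 UMIs in RW, 0, 0 and 2 in aJ1aJ2 and 9, 15 and 5 in aN1aN2. The CPM ratio of the Pgf counts was 43.9 against RW (95% counting interval 13.6 to 225) and 47.5 against aJ1aJ2 (12.0 to 411). In EC4, 26 pathway genes were tested and 2 rose and 3 fell (11.2% and 9.93% of all genes). Aplnr fell there by 2.53 ± 0.32, and Ptprb, the phosphatase that restrains Tek and Kdr, fell from 1787, 1970 and 1762 CPM to 1087, 1057 and 853 (log2 change -0.96 ± 0.17). Mcam, an endothelial adhesion molecule, fell by 1.22 ± 0.30, and Egln2, an oxygen sensor, changed by 1.43 ± 0.47 with its call lost by DESeq2 and on leaving out single samples (up to 0.15).

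Among thyrocytes, 41 pathway genes were tested in Th1, and 9 rose and 7 fell for aN1aN2 against RW (17.1% and 17.3% of all genes). Hif1a, the hypoxia-inducible subunit known to drive Vegfa, fell from 397, 306 and 331 CPM to 161, 182 and 117 (log2 change -1.16 ± 0.15 SE, edgeR adjusted p = 4.0e-05). Hif3a, a related subunit, had 6 UMIs in RW and 104 in aN1aN2, a CPM ratio of 45.1 (95% counting interval 20.0 to 126). The hypoxia targets split, with Ndrg1 (1.78 ± 0.13) and Bnip3 (0.96 ± 0.11) higher and 3 others lower, 2 and 3 of 7 tested.

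Fibroblasts had 27 pathway genes tested, with 6 higher and 5 lower for aN1aN2 against RW (9.17% and 10.6% of all genes). Igfbp3, an insulin-like growth factor carrier, was at 137, 113 and 118 CPM in RW, at 394, 250 and 392 in aJ1aJ2 and at 1736, 2625 and 4007 in aN1aN2 (log2 change 4.53 ± 0.30 against RW, SE, edgeR adjusted p = 1.7e-08). Bnip3 rose by 3.08 ± 0.34, Adm by 1.27 ± 0.20, and Cd34 fell by 1.43 ± 0.21. Vegfd, a ligand of Flt4, was tied with Adm in adjusted p and rose by 2.06 ± 0.33, from 21.1, 50.9 and 34.9 CPM in RW to 163, 169 and 121 in aN1aN2.

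Ligand blockade moved 3 pathway genes in these labels. For aJ1aJ2 against RW, 0 rose and 1 of 47 fell in EC1 (0.544% and 0.886% of all genes), 0 of 26 moved in EC4 (0.516% and 0.387%) and 0 of 41 in Th1 (0.386% and 0.226%), and 1 rose and 1 fell of 27 in F (0.393% and 0.186%). Igfbp3 rose in F by 1.5 ± 0.28 (SE, edgeR adjusted p = 0.018). Angpt1, the Tek activator, was at 66.7, 46.2 and 69.7 CPM in F of RW and at 11.2, 15.1 and 22.7 in aJ1aJ2, without overlap (log2 change -1.79 ± 0.38, edgeR adjusted p = 0.038), and at 16.9, 0 and 18.7 in aN1aN2. Kcne3, a potassium channel subunit of tip cells, changed by -2.55 ± 0.55 in EC1 (edgeR adjusted p = 0.019). Each of these 3 calls was lost on leaving out single samples, with adjusted p up to 0.15 for Igfbp3, 0.27 for Angpt1 and 0.24 for Kcne3.

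For aN1aN2 against aJ1aJ2, pathway genes numbered 5 higher and 4 lower of 47 in EC1 (6.95% and 6.59% of all genes), and 1 and 3 of 26 in EC4 (9.09% and 8.09%). They numbered 9 and 3 of 41 in Th1 (10.8% and 11.5%) and 5 and 3 of 27 in F (7.67% and 8.35%). In EC1, Aplnr changed by -1.64 ± 0.21 (SE) on the log2 scale, Unc5b by -2.58 ± 0.41 and Bnip3 by 1.68 ± 0.28, beside Pgf above. In EC4, Ptprb changed by -1.0 ± 0.17, Aplnr by -1.61 ± 0.35 and Cd34, a tip cell surface protein, by 0.91 ± 0.19. Pdgfb, which recruits mural cells, changed there by -0.65 ± 0.22 (edgeR adjusted p = 0.039), a call lost in 10 alternatives (up to 0.25). In Th1, Ndrg1 (1.41 ± 0.12), Hif3a (4.64 ± 0.45) and Bnip3 (0.71 ± 0.11) were higher and Hif1a (-1.03 ± 0.15) lower. In F, Igfbp3 (3.03 ± 0.27), Bnip3 (2.11 ± 0.27) and Vegfd (1.79 ± 0.29) were higher and Cd34 (-1.41 ± 0.21) lower.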

How the data were processed

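RNA of 9 pooled thyroid samples was read by 10x 3' single-cell sequencing. The authors deposited whole-number UMI counts per gene and cell and a table of cell labels, and how the labels were made and doublets treated is not given in the sources used here. Cell Ranger and GRCm38 are named per the submitters' processing notes. No doublet caller was run. In 2619 annotation lines a comma had shifted the columns, which was undone. Counts were summed per sample and label (20 cells or more), for EC1 to EC4 together and for all cells, and tested with edgeR 4.0.16 (TMM, filter on low counts, quasi-likelihood test, all 3 groups in 1 fit) in R 4.3.3, with adjustment over all genes of a sum. The scripts were tested on simulated data. DESeq2 1.42.0, no filter, 50 cells, thinning, the 2 groups alone, a replicate block and leaving out each sample were alternatives. Levels, shares, intervals and exact permutation tests used Python 3.11.15 and scipy 1.17.1. Intervals cover counting error only. Symbols were matched for 52403 of 52636 gene IDs, gene positions are from GENCODE M21 and promoter sequences from RefSeq (GRCm38.p6).

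The text names all 10 members. Of the 61 other pathway genes it counts those called in EC1, EC4, Th1 and F, and names up to 4 per label and contrast with the smallest adjusted p under 0.05. For Vegfa, Kdr, Flt4 and Angpt2 it names the 3 genes with the highest Pearson r of log2(CPM + 10) over labels with 50 RW cells, among genes with 100 RW UMIs. Members and lists were chosen with earlier results of these data known. A marker of the thyrocyte list, and the sums that hold it, are not reported here.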

Additional observations from a re-analysis of the deposited data

Results flagged for a closer look

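In several pairs of labels a gene stood higher in every aN1aN2 sample than in every sample of the other group in one label, and lower in every aN1aN2 sample in the other label. Values here are log2 ratios of mean CPM, and the gap is the difference between both labels. Vegfa against RW was higher in F (1.34) and lower in Th1 (-0.98), a gap of 2.31. It was also higher in EC1 (0.52), a gap to Th1 of 1.496, and against aJ1aJ2 the gap between F and Th1 was 2.45. Tek against RW was higher in EC3 (0.74) and lower in F (-1.79), a gap of 2.53. Tek was likewise higher in EC1 than F by 2.00 against RW and by 1.86 against aJ1aJ2, and Tie1 was higher in EC3 (0.34) and lower in EC1 (-0.16) against RW, a gap of 0.50. For Vegfa in F and Th1 and Tek in F and EC3 against RW, exact permutation tests on log2(CPM + 10) gave differences of 2.12 and -2.02 (exact p = 0.1 each), the smallest p possible and one that the separation of samples behind the choice fixes, so they add nothing. The other differences were not tested. Vegfa and Tek in EC1, and Tie1 in EC1 and EC3, were not called in the fits above. How often other genes separate in this way was not counted, so these pairs have no background share.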

How the results depend on the processing

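Among the results recomputed (counts of calls, 51 called member results and 35 pathway gene results), none changed its direction. With no filter on low counts, 1 member and label pair was called for aJ1aJ2 against RW (Kdr in Th1) in place of 0. Without RW 3, 2 were called over labels (Esm1 in EC1 and Nrp2 in S), and 1 in the sum of EC1 to EC4 (Esm1). With at least 50 cells per sample, which leaves fewer labels and samples, 11 pairs were called for aN1aN2 against RW (18 with 20 cells) and 12 for aN1aN2 against aJ1aJ2 (19 with 20 cells). Leaving out each sample in turn gave 0 to 2 called pairs for aJ1aJ2 against RW, 14 to 19 for aN1aN2 against RW and 14 to 18 for aN1aN2 against aJ1aJ2. In the sum of EC1 to EC4 the ranges were 0 to 1, 3 to 4 and 3 to 4, and in the sum of all cells 0 to 0, 3 to 4 and 3 to 4. With a replicate block, for RW 1, RW 2, aN1aN2 1 and aN1aN2 2 alone, 20 pairs were called for aN1aN2 against RW. In these 4 samples, whose titles carry the numbers, same-numbered samples did not deviate together (r of 0.0148 in EC1, -0.0445 in Th1 and -0.0399 in the sum of EC1 to EC4, each across genes). With so few samples this check cannot show whether same-numbered samples shared any handling. With number series A or B as a covariate, 0 pairs were called for aJ1aJ2 against RW. Of 544 alternatives run on 51 called member results, 488 kept the call and 56 lost it, in 14 results. Kdr, Nrp1 and Esm1 in EC1 and EC4 kept theirs for aN1aN2 against RW in all 13 alternatives each. Low depth limits Angpt2 (577 UMIs) and the small labels most.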
